A study of Rattus norvegicus with 22 samples.

Results

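Liver gene expression was compared between rats exposed to ozone and rats exposed to clean air after the hepatic branch of the vagus nerve had been cut. The comparison took 11 of the 22 RNA sequencing libraries of the study, 5 from vagotomised rats that breathed ozone and 6 from vagotomised rats that breathed air. The other 11 libraries came from sham-operated rats and were used here only where the ozone change was set beside the one in those animals. All animals were operated on at 12 weeks of age and given 5 to 6 days to recover. Exposure to clean air or to 1.0 ppm ozone lasted 4 hours a day, was given on 1 day or on 2, and liver was taken no later than 2 hours afterwards. Hepatic vagotomy was common to both groups compared, so their difference is an ozone difference in livers without that nerve branch. The labels give neither strain nor sex, and do not say which rats had 1 day and which had 2 days of exposure. Each library came from 10 to 20 mg of liver of 1 rat, and the labels do not say from how many litters or surgery days the rats came.

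Ozone is a reactive gas that is spent in the lining of the airways and is not thought to reach the liver itself. Its inhalation is known to activate the sympathetic nerves and the adrenal axis, and the released catecholamines and glucocorticoids act on liver glucose, amino acid and lipid metabolism. The hepatic vagus carries signals in both directions between the liver and the brainstem, including information on nutrients, and takes part in the nervous control of glucose output.

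Of 14971 genes listed, 12462 (83.2%) reached a mean of 10 normalised counts over the 11 libraries and were tested with limma on log2(normalised count + 1). A gene is said below to have risen or fallen only if its p, adjusted by Benjamini-Hochberg over the 12462 genes, was under 0.05. Changes are log2 fold changes, ozone minus air, with their standard error (SE), and adjusted p-values are those of limma unless another tool is named. Reads assigned to genes numbered 14098863 to 21141337 per library in air and 16259568 to 17582912 in ozone. Air libraries 1 and 5 and ozone library 1 stood apart from the other 8. Their 5.8S ribosomal RNA had 180, 89.4 and 38.1 normalised counts against 342 to 1877 in the rest. In these 3 libraries 61 small nucleolar RNA rows summed to 108 to 155. That sum was 1010 to 3422 in the other air libraries and 4252 to 8078 in the other ozone libraries, without overlap. The difference in this sum was not tested. The part of the 3 libraries low in 5.8S ribosomal RNA was not tested as a cause, but each result was also computed without them. All 10 hepatocyte markers sought were measured, of which Apoa1 and Cps1 rose and Fgb fell. Of the markers of other cells, 0 of 11 tested for Kupffer cells, 0 of 12 for stellate cells and 0 of 5 for cholangiocytes were called by limma or edgeR (0, 1 and 0 at an unadjusted p under 0.05), whereas 3 of the 12 stellate markers fell without the libraries low in 5.8S ribosomal RNA. Of 6 mesothelial markers 0 were called by limma or edgeR and 0 had an unadjusted p under 0.05, but all 6 had lower estimates after ozone (median -0.47), and they summed to 59.2 to 294 normalised counts in air and 24.3 to 238 in ozone. Of the 11 markers tested for B and plasma, erythroid, neuronal and glial, and neutrophil and monocyte cells 0 were called by limma or edgeR, with 2 at an unadjusted p under 0.05, and 1 erythroid marker rose without the libraries low in 5.8S ribosomal RNA. Of the others, 1 of 11 for sinusoidal endothelium rose (Lyve1, by 0.51 ± 0.12, adjusted p = 0.0103), while 7 of the 11 had lower estimates after ozone (median -0.005). For T and NK cells 1 of 6 fell (Cd8a, by 1.34 ± 0.30, adjusted p = 0.00796), and all 6 had lower estimates (median -0.43). Cd8a had only 12.3 to 27.1 normalised counts in air and 3.84 to 12.1 in ozone. With all 22 libraries in 1 model it was not called (limma adjusted p = 0.0934). In bulk liver, fewer cells of a type and less RNA per cell cannot be told apart.

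After ozone 2423 genes (19.4% of those tested) differed from air in vagotomised rats, of which 1285 (10.3%) were higher and 1138 (9.13%) lower. Most changes were moderate, with a median size of 0.61 on the log2 scale among called genes. At least 2-fold rises were seen in 197 called genes and falls of that size in 205, and at least 4-fold changes in 27 and 20. The values of the 2 groups did not overlap at all in 1460 genes (11.7%), of which 770 were called higher and 616 called lower. Leaving out ozone library 3 lowered the count of called genes to 1543, and without the 3 libraries low in 5.8S ribosomal RNA it was 3302 (26.5%), of which 2221 were shared with the 2423. Some gene lists given below had shares of members called near or under the 19.4% of all genes. These included xenobiotic metabolism (25%), fatty acid oxidation (24.1%), glucocorticoid response (24%), fatty acid synthesis (23.8%) and insulin signalling (23.8%). Endoplasmic reticulum chaperones had 22.7%, complement and coagulation genes 21.1%, immediate early genes 18.2% and nuclear genes of the respiratory chain 16.7%. NF-kB and inflammation genes had 14.3%, pericentral genes 11.8%, acute phase genes 11.1% and ATF4 genes 10.7%. Their counts are described and not read as a response of the pathway.

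**Figure D1:**
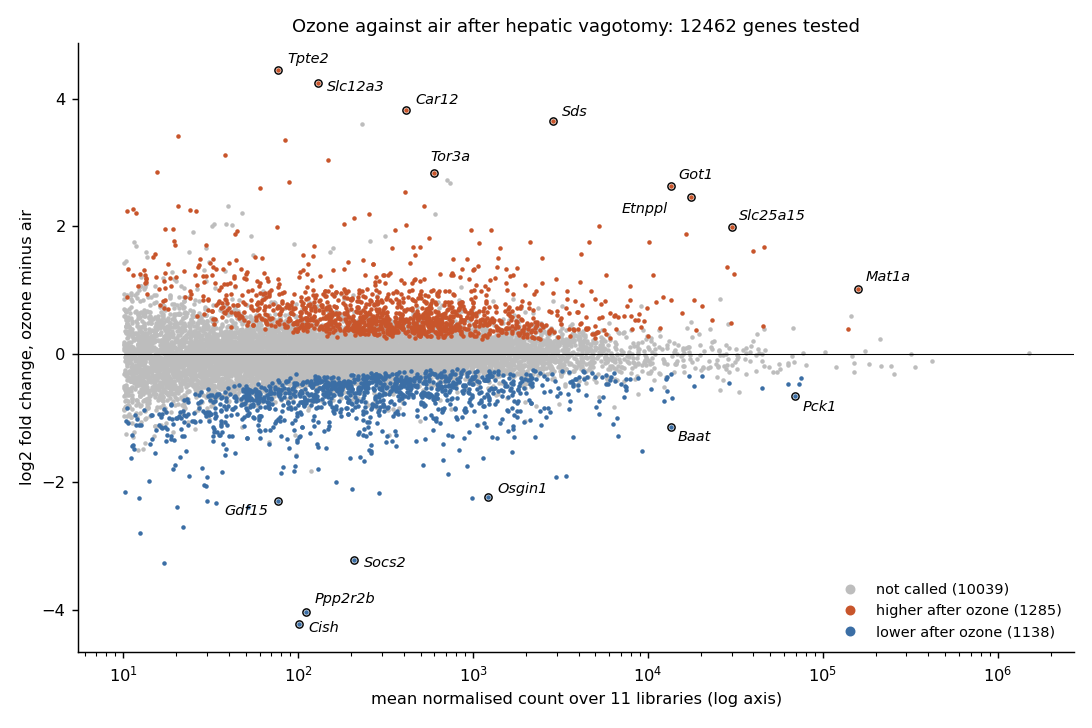
Each point is 1 of the 12462 genes tested, with its mean normalised count over the 11 libraries of vagotomised rats on a log axis and its log2 fold change, ozone minus air, on the vertical axis. Orange points (1285) were higher and blue points (1138) lower after ozone at an adjusted p under 0.05, and circled genes are named in the text, among them Tpte2 at 4.44 and Cish at -4.23.

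Tpte2, Slc12a3 and Car12 had the largest rises of the named genes. Tpte2, which encodes a transmembrane phosphatase of the tensin family, had 0.85 to 11.0 normalised counts in air (median 7.64) and 108, 254, 212, 119 and 111 in the 5 ozone libraries. Slc12a3, the thiazide-sensitive sodium chloride cotransporter best known from the kidney, went from 6.02 to 23.8 (median 13.9) in air to 154, 292, 449, 235 and 217. Car12, a membrane-bound carbonic anhydrase, had 13.3 to 115 in air (median 56.3) and 1141, 837, 1186, 518 and 482 after ozone. None of these values overlapped between the groups, and the rises were 4.44 ± 0.42 (adjusted p = 2.9e-05), 4.24 ± 0.35 (adjusted p = 1.19e-05) and 3.83 ± 0.45 (adjusted p = 0.000128). Slc41a3, of a magnesium transporter family, rose by 3.35 ± 0.28, Tor3a, a torsin-family ATPase of the endoplasmic reticulum, by 2.83 ± 0.29, Fam69c by 3.03 ± 0.42 and Spsb1, an adaptor of a ubiquitin ligase, by 2.69 ± 0.46. For the last pair the ozone libraries were unequal: Fam69c had 492, 357 and 351 in ozone 1 to 3 but 128 and 113 in ozone 4 and 5, and Spsb1 had 290, 207 and 213 but 84.2 and 45.7.

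Among the steepest falls, Ppp2r2b, a brain-enriched regulatory subunit of protein phosphatase 2A, had 105 to 257 normalised counts in air (median 195) and 21.0, 7.68, 8.38, 6.93 and 12.1 after ozone. The change of -4.04 ± 0.28 (adjusted p = 6.39e-06) separated every ozone library from every air library by a wide gap. Akap5, which anchors protein kinase A near its targets, fell by 2.40 ± 0.30 and Gadd45g, a growth arrest and stress gene, by 2.18 ± 0.34. Gdf15, a stress-induced secreted hormone, fell by 2.30 ± 0.58 (adjusted p = 0.0147), but air values ran from 23 to 285 and overlapped the ozone values of 19.1, 12.5, 8.38, 25.7 and 27.1.

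Growth hormone acts on hepatocytes through the kinase JAK2 and the factor STAT5, which induces Cish and Socs2, inhibitors that shut the receptor off again, and Igf1 with its carrier subunit Igfals. In the promoter of Cish, printed here because it holds the letters that STAT dimers bind, TTCNNNGAA (in capitals, either strand) occurs 4 times in 300 bases, from 250 before to 50 after the start of the gene, at chr8:116850719-116851018 on the plus strand of GRCr8 (RefSeq). Of 33469 rat promoters of that length 8.87% hold it at least once, and among tested genes 7.34% of 858 lower, 5.37% of 969 higher and 6.86% of 7060 not called. A match of letters is a description and not evidence of binding in these livers.
Cish: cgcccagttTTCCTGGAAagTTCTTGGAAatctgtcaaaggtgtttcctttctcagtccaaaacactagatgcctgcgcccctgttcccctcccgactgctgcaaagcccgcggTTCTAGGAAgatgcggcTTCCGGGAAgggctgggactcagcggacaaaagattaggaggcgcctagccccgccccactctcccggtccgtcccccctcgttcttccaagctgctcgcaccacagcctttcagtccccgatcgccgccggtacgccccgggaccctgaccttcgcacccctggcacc

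Cish had 916, 109, 33.3, 19.9, 12.0 and 15.3 normalised counts in the 6 air libraries and 4.77, 0.96, 1.05, 0.99 and 1.87 in the 5 ozone libraries. These are 12 to 1077 reads in air and 5, 1, 1, 1 and 2 reads after ozone, so the size of the fall is imprecise although the groups did not overlap. The fitted change was -4.23 ± 0.91 on the log2(count + 1) scale (adjusted p = 0.00582), and without the libraries low in 5.8S ribosomal RNA it was -3.94. With edgeR and DESeq2 on recovered reads it was -6.51 and -6.58, and with 5 in place of 1 added to each count it was -3.07. Socs2 had 1123, 841, 127, 69.7, 37.1 and 31.8 in air and 17.2, 16.3, 17.8, 12.9 and 11.2 after ozone, a fall by 3.23 ± 0.83 (adjusted p = 0.0157). For both genes air libraries 1 and 2 were the highest and every ozone library lay below the lowest air value. The ozone values of Socs2 were tightly grouped, whereas the 1 to 5 reads of Cish are too few to judge their spread. Of the 22 members of the growth hormone and STAT5 list tested, 0 rose and 6 fell (Cish, Socs2, Stat5b, Stat5a, Igfals and Mup5), with a list median of -0.34 against -0.01 over all genes tested. Stat5b fell by 0.60 ± 0.11 and Igfals by 0.74 ± 0.17. Igf1 itself did not pass: it had 11191 to 14905 in air (median 11764) and 11065, 12165, 11377, 8807 and 8245 after ozone, a difference of -0.30 ± 0.12 (adjusted p = 0.113), and passed without the libraries low in 5.8S ribosomal RNA (adjusted p = 0.0495).

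**Figure D2:**
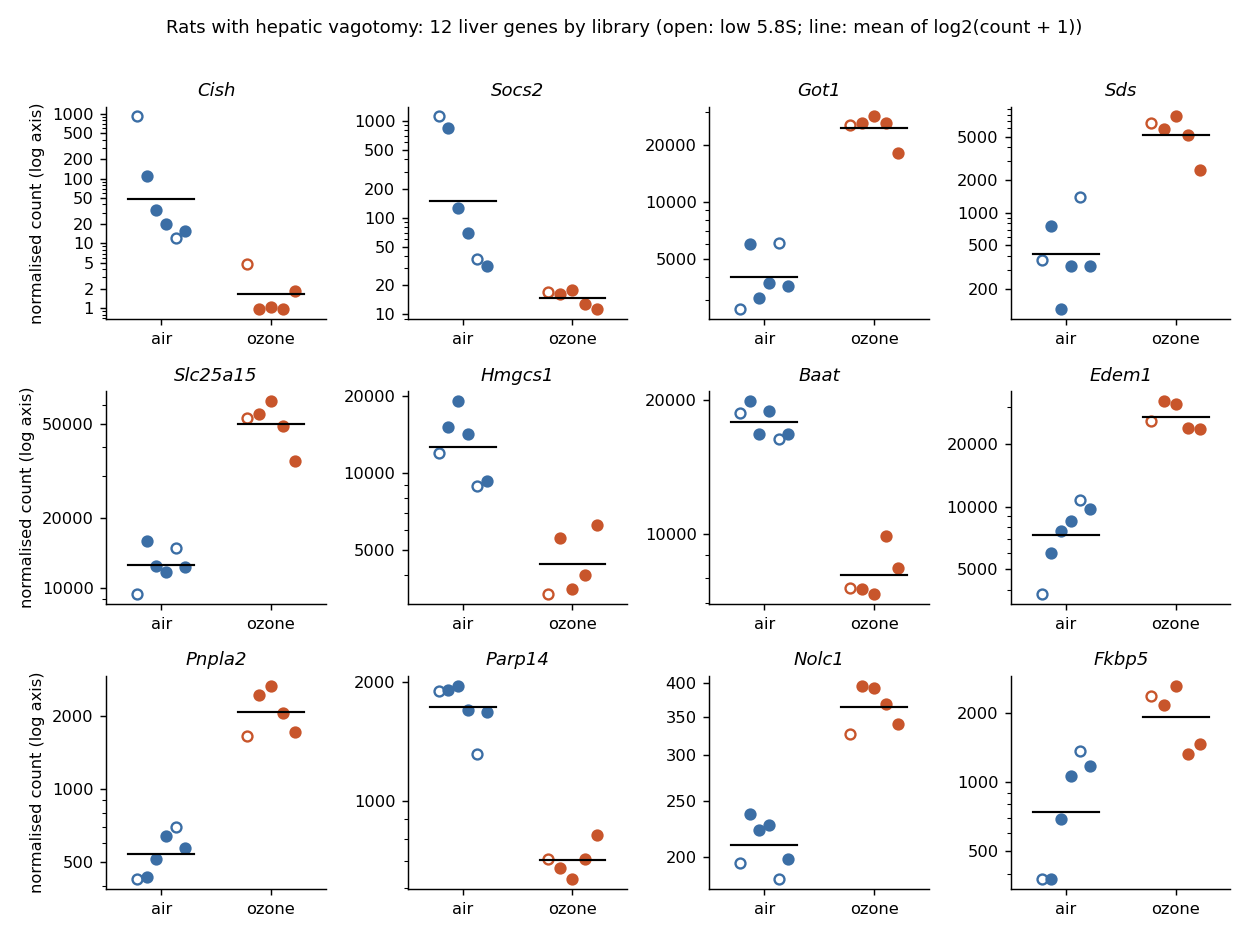
Normalised counts of 12 genes in each of the 6 air (blue) and 5 ozone (orange) libraries of vagotomised rats, on log axes that differ between panels. Open circles are the 3 libraries low in 5.8S ribosomal RNA, lines are group means of log2(count + 1), and replicates stand left to right in order of their number. Fkbp5 is the panel in which the groups overlap.

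Of 41 amino acid catabolism genes tested, 10 rose, 2 (Kmo, Asrgl1) fell and 29 did not pass, and of 13 urea cycle genes 6 rose, 1 (Aqp9) fell and 6 did not pass, with list medians of 0.18 and 0.40. Got1, the cytosolic aspartate aminotransferase, had 2685 to 6039 normalised counts in air (median 3637) and 25479, 26319, 28430, 26023 and 18086 after ozone, a 6.18-fold rise by 2.63 ± 0.21 (adjusted p = 1.19e-05). Sds, which deaminates serine to pyruvate, had 129 to 1400 in air (median 347) and 6648, 5928, 7757, 5211 and 2453, a rise by 3.65 ± 0.49 (adjusted p = 0.000313). Agxt, the peroxisomal alanine-glyoxylate aminotransferase, rose within a narrow range, from 1111 to 1399 in air (median 1328) to 2522, 2483, 2940, 3061 and 2867 (1.08 ± 0.09, adjusted p = 1.19e-05). All 3 separated the groups completely, and ozone library 5 was the lowest of its group for Got1 and Sds. Tdo2, which opens the tryptophan ring, rose by 1.61 ± 0.22 and Dbt, of the branched-chain keto acid dehydrogenase, by 1.15 ± 0.12.

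Within the urea cycle the estimates were largest for the mitochondrial ornithine carrier and the last cytosolic enzymes. Slc25a15, the carrier, had 9432 to 15906 in air (median 12408) and 52967, 55240, 62651, 48924 and 34727 after ozone, a 3.97-fold rise by 1.99 ± 0.16 (adjusted p = 1.19e-05). Arg1, which releases urea, rose by 1.37 ± 0.21 and Asl, which splits argininosuccinate, by 1.24 ± 0.18. Ass1 and Cps1, given here although the naming rule did not choose them, rose by 0.76 ± 0.17 and 0.40 ± 0.12, and the call of Cps1 was lost without ozone library 2 (adjusted p = 0.101). Otc, also outside the rule, was not called (0.18 ± 0.15, adjusted p = 0.451). The differences between these members were not tested.

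The methionine cycle, which makes the methyl donor S-adenosylmethionine, had 8 of 17 members higher and 1 (Mtr) lower. Mat1a, the liver enzyme that makes S-adenosylmethionine, had 87402 to 121713 normalised counts in air (median 108830) and 227703, 221102, 248487, 218355 and 181014 after ozone, with no overlap and a rise by 1.03 ± 0.11 (adjusted p = 9.48e-05). Bhmt, which remethylates homocysteine with betaine, had 16745 to 33494 in air (median 20177) and 102303, 71099, 80604, 64440 and 49989, a 3.21-fold rise by 1.68 ± 0.20. Nnmt, which uses the methyl donor on nicotinamide, rose by 1.27 ± 0.17, and Qprt, which makes nicotinic acid mononucleotide from the tryptophan product quinolinate, by 0.72 ± 0.10. Of 15 NAD synthesis genes 4 rose and 1 fell. Of 16 hepatocyte amino acid transporters 6 rose and 1 fell, with a list median of 0.42: the small neutral amino acid transporter Slc38a4 rose by 1.25 ± 0.18, the aromatic amino acid carrier Slc16a10 by 1.48 ± 0.23 and the heavy chain Slc3a2 by 0.73 ± 0.11, whereas its light chain partner Slc7a5 (outside the naming rule) fell by 1.60 ± 0.41. Genes of the periportal zone were higher in 8 of 18 and lower in 2. Of those that rose, all but Hsd17b13 were already counted above, so the zone is not a separate result. Sds and Hal stand on the amino acid catabolism list, and Asl, Arg1, Gls2, Ass1 and Cps1 on the urea cycle list. Genes of the pericentral zone were higher in 1 of 17 (Oat, also on the amino acid catabolism list) and lower in 1 (Slco1b2). The periportal falls were 1 without ozone library 2 or 3, and the pericentral rise was 0 without air library 1, 3 or 6 or ozone library 2, 3 or 4, and 2 without air library 2 or ozone library 1. Several genes stand in more than 1 of these lists.

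**Figure D3:**
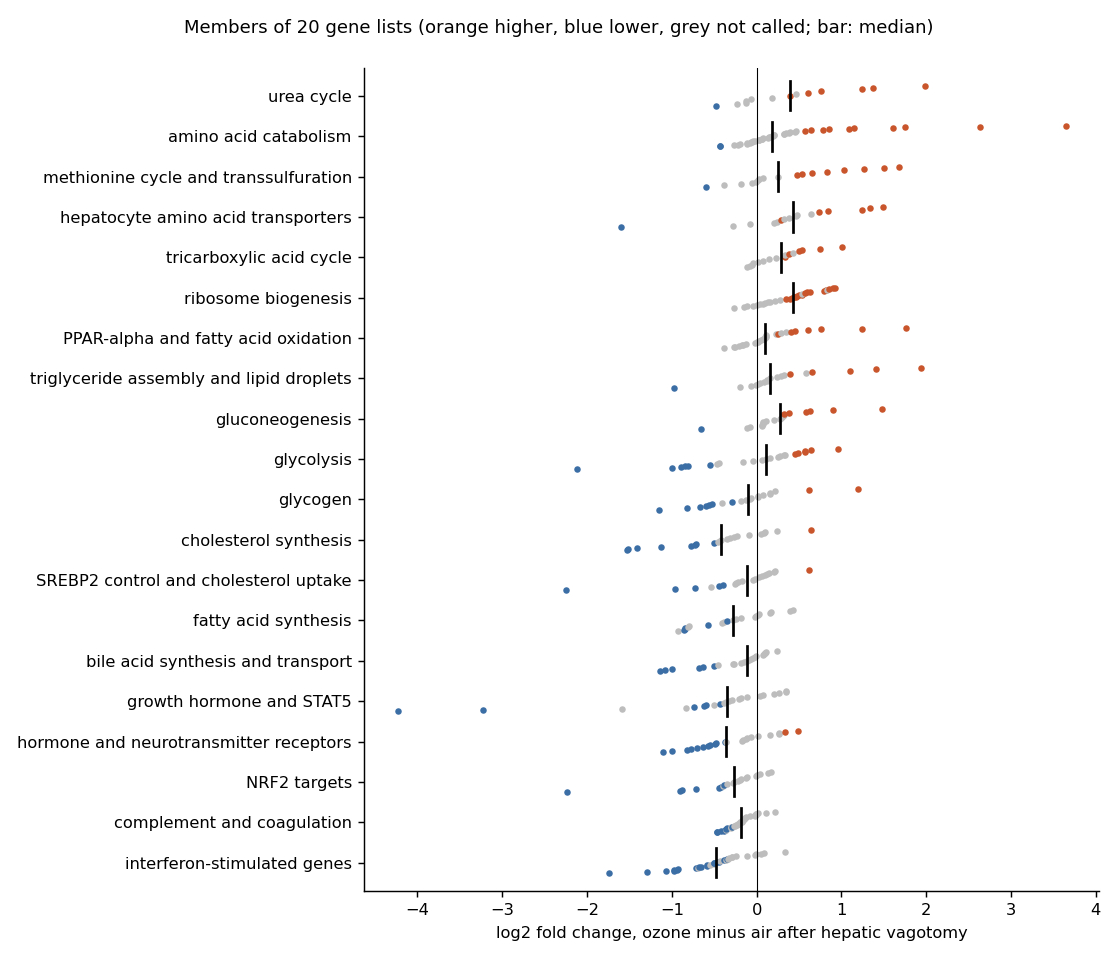
Log2 fold changes, ozone minus air in vagotomised rats, of the tested members of 20 gene lists, 1 point a gene, orange if higher, blue if lower and grey if not called at an adjusted p under 0.05. Black bars are list medians, from 0.43 for ribosome biogenesis to -0.48 for interferon-stimulated genes, and lists share some members.

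Gluconeogenesis rebuilds glucose from amino acid carbon, with Pck1 at its cytosolic entry and G6pc and its carrier Slc37a4 at its exit. Of 21 genes on that list 6 rose and 1 fell, and the 1 that fell was Pck1. Pck1 had 71058 to 113561 normalised counts in air (median 77980) and 81312, 46390, 48565, 53303 and 37905 after ozone, so ozone library 1 lay inside the air range and the other 4 below it. Its fall by 0.66 ± 0.18 (adjusted p = 0.0198) was not called without ozone library 3 (adjusted p = 0.0542) or without ozone library 2 (adjusted p = 0.0524). Mdh1, cytosolic malate dehydrogenase, rose by 0.90 ± 0.12, Gpd1, glycerol-3-phosphate dehydrogenase, by 0.63 ± 0.10 and Slc37a4 by 0.58 ± 0.14. The coactivator Ppargc1a, outside the naming rule, had 56.2 to 155 in air (median 125) and 471, 558, 488, 187 and 137 after ozone, with ozone libraries 4 and 5 nearest to air, and rose by 1.48 ± 0.37 (adjusted p = 0.0142).

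On the side of glucose use, Mlxipl, the glucose-sensing factor ChREBP, had 744 to 1037 normalised counts in air (median 818) and 591, 556, 427, 346 and 458 after ozone. All 5 ozone libraries lay below the air range, and it fell by 0.85 ± 0.14 (adjusted p = 0.00107), while Pgam1, a glycolytic mutase, rose by 0.45 ± 0.08. The glycolysis list had 6 higher and 6 lower of 23, the lower count being 3 without air library 6 or without ozone library 2. Of 20 glycogen genes 7 fell and 2 rose, and 1 rose without air library 1, 2, 3, 4 or 6 or ozone library 1, 2 or 4. Ugp2, which makes the UDP-glucose that glycogen is built from, fell by 0.60 ± 0.08 (adjusted p = 0.000413) and Stbd1, which tethers glycogen to membranes, by 1.15 ± 0.21, whereas Gys1, the glycogen synthase of muscle, rose from a median of 38.4 by 1.19 ± 0.20. Irs1, a docking protein of the insulin receptor, fell by 0.50 ± 0.11.

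Cholesterol synthesis fell in 8 of 21 members, with a list median of -0.43, and rose in 1. Its genes and those of cholesterol uptake are driven by the factor SREBP2. Hmgcs1, at the start of the pathway, had 8913 to 19069 normalised counts in air (median 13071) and 3354, 5545, 3517, 4006 and 6256 after ozone, a fall by 1.52 ± 0.22 (adjusted p = 0.000445). Msmo1, a later demethylation enzyme, fell by 1.52 ± 0.21 with no overlap. Srebf2, which encodes SREBP2, fell by 0.73 ± 0.13 and Npc1, which exports cholesterol from lysosomes, by 0.96 ± 0.12. Insig1, which retains the SREBP proteins in the endoplasmic reticulum, did not pass (0.14 ± 0.36, adjusted p = 0.827), and its values of 29050, 16773, 14749, 5857 and 6482 after ozone lay on both sides of the air range of 8573 to 18135. Of the 20 SREBP2 control genes 5 fell and 1 rose. On the list of fatty acid synthesis, 5 of 21 members fell and 0 rose, Acly, the ATP citrate lyase, by 0.84 ± 0.14; that count was 2 to 3 without any 1 of the air libraries or of ozone libraries 2 to 5, and 8 without ozone library 1.

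Pnpla2, the adipose triglyceride lipase that starts fat breakdown, had 426 to 701 normalised counts in air (median 545) and 1648, 2448, 2658, 2066 and 1717 after ozone, a 3.83-fold rise by 1.94 ± 0.16 (adjusted p = 1.19e-05). Abhd5, the coactivator of that lipase, fell: it had 1063 to 2119 in air (median 1483) and 635, 795, 749, 801 and 774 after ozone, a change of -0.97 ± 0.16 (adjusted p = 0.00107). Plin5, a lipid droplet coat protein, rose by 1.40 ± 0.16. Of 19 triglyceride and lipid droplet genes 5 rose and Abhd5 fell, and 8 rose without the libraries low in 5.8S ribosomal RNA. Of 29 fatty acid oxidation genes, targets of PPAR-alpha, 7 rose and 0 fell: Cpt1a and Cpt2, which carry fatty acids into mitochondria, rose by 1.24 ± 0.23 and 0.60 ± 0.11, and Pex11a, of peroxisome division, by 1.76 ± 0.25. Slc16a6, which exports ketone bodies, rose by 1.99 ± 0.29 and Aacs, which uses them for lipid synthesis, fell by 1.54 ± 0.27.

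Bile acid genes fell in 6 of 23 and rose in 0. Baat, which conjugates bile acids to glycine and taurine, had 16384 to 19904 normalised counts in air (median 17775) and 7582, 7532, 7334, 9931 and 8411 after ozone, a 2.21-fold fall by 1.14 ± 0.10 (adjusted p = 1.53e-05) with a wide gap between the groups. Abcc2, a canalicular export pump, fell by 0.68 ± 0.12 and Slco1b2, an uptake carrier, by 0.50 ± 0.13. Cyp7a1, the rate-limiting enzyme of bile acid synthesis, ranged from 1237 to 10854 in air and from 1855 to 6511 after ozone and was not called (0.09 ± 0.45, adjusted p = 0.92).

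Of the 50 pathway lists, that of interferon-stimulated genes held the largest count of falls. Interferons act through factors of the STAT and IRF families on elements in the promoters of antiviral genes. Of 34 tested, 18 fell and 0 rose, with a list median of -0.48, and 13 of the 18 stayed called without each library in turn. Parp14, an ADP-ribosyltransferase, had 1312 to 1957 normalised counts in air (median 1798) and 710, 672, 631, 710 and 817 after ozone, a 2.45-fold fall with a change of -1.29 ± 0.11 (adjusted p = 1.56e-05). Irgm, an immunity-related GTPase, had 424 to 1160 in air (median 735) and 226, 194, 206, 222 and 238, a fall by 1.74 ± 0.20 (adjusted p = 0.000115). Igtp, a GTPase of the same family, had 922 to 1988 in air (median 1606) and 639, 604, 718, 761 and 777, a fall by 1.07 ± 0.18. Air library 5, which was low in 5.8S ribosomal RNA, was the lowest air library for all 3 genes, and yet lay above every ozone library. Parp9 fell by 0.98 ± 0.14. The markers of T and NK cells summed to 273 to 459 in air and 165 to 409 in ozone and those of Kupffer cells to 6509 to 10811 and 6125 to 12822, and their part in the interferon result was not tested.

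The promoters of Parp14 and Igtp are printed because they hold the letters of an interferon element, GAAA, any 2 bases and GAAA (capitals, either strand), 1 match each. They cover chr11:78407884-78408183 and chr10:42874797-42875096 of GRCr8, both on the plus strand, from RefSeq. Of all 33469 promoters 3.92% hold these letters, among tested genes 5.13% of 858 lower, 2.48% of 969 higher and 3.02% of 7060 not called. Psmb9, an immunoproteasome subunit, has no match in its window and was not called (-0.11 ± 0.30, adjusted p = 0.844).
Parp14: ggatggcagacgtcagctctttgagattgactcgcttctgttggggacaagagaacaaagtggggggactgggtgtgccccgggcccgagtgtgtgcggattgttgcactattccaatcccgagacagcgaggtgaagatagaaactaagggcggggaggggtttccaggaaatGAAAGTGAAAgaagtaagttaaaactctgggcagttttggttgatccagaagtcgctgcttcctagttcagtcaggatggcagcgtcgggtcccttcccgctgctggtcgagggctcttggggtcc
Igtp: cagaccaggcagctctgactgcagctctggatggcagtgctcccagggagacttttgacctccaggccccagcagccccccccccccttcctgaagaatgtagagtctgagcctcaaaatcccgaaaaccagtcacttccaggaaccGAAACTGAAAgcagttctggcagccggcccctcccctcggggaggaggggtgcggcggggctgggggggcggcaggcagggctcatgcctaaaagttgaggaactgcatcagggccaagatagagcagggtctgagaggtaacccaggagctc

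Of 38 complement and coagulation genes 8 fell and 0 rose, with 13 falling without the libraries low in 5.8S ribosomal RNA and 5 without ozone library 2, 4 or 5. Fgb, the fibrinogen beta chain, had 76377 to 89023 normalised counts in air (median 84573) and 59982, 57525, 61444, 60634 and 60493 after ozone, a fall by 0.47 ± 0.08 (adjusted p = 0.00183). Fga fell by 0.47 ± 0.12, C1s, a protease of the classical pathway, by 0.47 ± 0.08 and Klkb1, plasma prekallikrein, by 0.36 ± 0.08. Of 27 acute phase genes 3 fell, all of them fibrinogen chains (Fgb, Fga, Fgg), and 0 rose. Hepcidin, Hamp, was not called (-0.38 ± 0.38, adjusted p = 0.537). Of 21 NF-kB and inflammation genes Icam1, an adhesion molecule, rose by 0.61 ± 0.11, and Cxcl10, an interferon-induced chemokine, and Relb fell, Cxcl10 by 1.79 ± 0.43. The falls were 1 without air library 1, 3, 4 or 5 or ozone library 2, 3 or 5, and the rises were 2 without air library 1 or 6.

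Of 30 ribosome biogenesis factors, which build ribosomes, 16 rose, 0 fell and 14 did not pass, with a list median of 0.43, and the count was 10 without ozone library 3. Nolc1, a nucleolar chaperone, had 183 to 237 normalised counts in air (median 211) and 326, 396, 392, 368 and 340 after ozone, a rise by 0.79 ± 0.10 (adjusted p = 0.000227). Rrs1 rose by 0.90 ± 0.14 and Rrp12 by 0.82 ± 0.13, both factors of pre-ribosome assembly. By contrast 0 of 32 ribosomal protein genes were called by limma, 0 by edgeR and 0 by DESeq2, with 0 at an unadjusted p under 0.05 and a median of -0.10. Among 19 translation factors 5 rose, Eif4a1, the RNA helicase of initiation, by 0.46 ± 0.08, and 1 fell, Eef2k, the kinase that slows elongation, by 0.74 ± 0.15. The rise in translation factors counted 3 without ozone library 3, and 8 once the libraries low in 5.8S ribosomal RNA were left out.

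Of 16 tricarboxylic acid cycle genes 6 rose, 0 fell and 10 did not pass. Dlst, of the oxoglutarate dehydrogenase, had 1687 to 2049 normalised counts in air (median 1912) and 2556, 2776, 2858, 2578 and 2627 after ozone, with no overlap, and rose by 0.50 ± 0.08 (adjusted p = 0.000821). Idh3a, of the NAD-dependent isocitrate dehydrogenase, rose by 1.00 ± 0.18. Of 36 nuclear genes of the respiratory chain 6 rose (Cycs, cytochrome c, by 0.84 ± 0.16), 0 fell and 30 did not pass. The share called was 16.7%, beside 19.4% of all genes tested. The count of rises was 3 without air library 3 or 4 or without ozone library 2, 3 or 4. It was 15 once the libraries low in 5.8S ribosomal RNA were left out.

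Edem1, which helps to route misfolded glycoproteins of the endoplasmic reticulum to degradation, had 3800 to 10798 normalised counts in air (median 8074) and 25720, 31988, 30980, 23766 and 23382 after ozone, a 3.67-fold rise by 1.88 ± 0.22 (adjusted p = 0.000135). It was the only 1 of 22 endoplasmic reticulum chaperone genes that rose, and 4 fell: Pdia4, a disulfide isomerase, by 0.47 ± 0.10, Xbp1 (outside the naming rule) by 0.66 ± 0.20, Creld2 and Derl3. The count of falls was 1 without ozone library 2 or 3, 2 without air library 1 or ozone library 4 or 5, and 7 without the libraries low in 5.8S ribosomal RNA. Autophagy and lysosome members were higher in 7 of 31 cases and lower in 2. Map1lc3b, the LC3 protein of the autophagosome membrane, had 504 to 788 in air (median 584) and 1601, 1401, 1523, 1135 and 1117 after ozone, a rise by 1.18 ± 0.14 (adjusted p = 0.000111), whereas Sqstm1, the cargo receptor p62, fell by 0.68 ± 0.12.

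NRF2 is the factor that induces antioxidant and conjugating enzymes. Of its 21 listed targets and regulators 7 fell, 0 rose and 14 did not pass, with a list median of -0.27. Osgin1, an oxidant-induced growth inhibitor, had 1138 to 3360 normalised counts in air (median 1723) and 178, 295, 221, 772 and 744 after ozone, with ozone libraries 4 and 5 nearest to air, and fell by 2.24 ± 0.39 (adjusted p = 0.00171). Gclm, the modifier subunit for glutathione synthesis, fell by 0.88 ± 0.12 and Ugdh, which makes UDP-glucuronate, by 0.91 ± 0.10. Nfe2l2, the gene of NRF2 and outside the naming rule, fell by 0.72 ± 0.15. Of 24 xenobiotic metabolism genes 4 rose and 2 fell. Por, the electron donor of the P450 enzymes, had 1231 to 3926 in air (median 2252) and 6675, 7740, 7711, 7896 and 6541, a 3.39-fold rise by 1.76 ± 0.22 (adjusted p = 0.000214), and Nr1i2, the pregnane X receptor, rose by 0.99 ± 0.15. The 4 rises were 2 without air library 6 or ozone library 3, and the 2 falls were 5 without the libraries low in 5.8S ribosomal RNA. Mt2A, a zinc-binding metallothionein, rose by 1.06 ± 0.19.

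Receptors for circulating signals were lower in 11 of 23 genes and higher in 2, with a list median of -0.37. Thrb, the main thyroid hormone receptor of hepatocytes, had 1415 to 1655 normalised counts in air (median 1516) and 929, 882, 797, 825 and 997 after ozone, a fall by 0.78 ± 0.08 (adjusted p = 7.7e-05). Its paralogue Thra, outside the naming rule, rose by 0.49 ± 0.10. Adra1b, the alpha-1B adrenergic receptor through which noradrenaline acts on rat liver, had 530 to 976 in air (median 622) and 500, 288, 247, 326 and 359, a fall by 0.99 ± 0.19 (adjusted p = 0.00255). Ptger3, a prostaglandin E2 receptor, fell by 0.82 ± 0.15 and Fgfr4, the receptor of the gut hormone FGF19 family, by 0.64 ± 0.13. Nr3c1, the glucocorticoid receptor, had 2327 to 4213 in air (median 2692) and 1894, 2109, 1866, 1979 and 2122 after ozone, a fall by 0.49 ± 0.13 (adjusted p = 0.0192) that was not called without ozone library 3 (adjusted p = 0.0549).

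Of 25 genes on the glucocorticoid response list 4 were higher and 2 (Nr3c1, Pck1) lower, 24% called beside 19.4% of all genes tested. The lower count was 0 without ozone library 3 and 1 without ozone library 2. Fkbp5, a co-chaperone of the receptor, had 378 to 1369 normalised counts in air (median 876) and 2366, 2164, 2618, 1320 and 1470 after ozone. Ozone library 4 lay inside the air range and ozone library 5 just above it, and the rise was 1.37 ± 0.34 (adjusted p = 0.0137). Tat, tyrosine aminotransferase, had 12477 to 36972 in air (median 18460) and 37541, 27142, 25506, 25344 and 13830, and was not called (0.39 ± 0.27, adjusted p = 0.359). Per1, a clock gene with a glucocorticoid element, was not called either (0.23 ± 0.32, adjusted p = 0.682), while Cry2 rose by 0.93 ± 0.15. The letters TGTTCT of the receptor's site, sought on either strand, occur in neither the Fkbp5 nor the Tat promoter window. They occur in 20.7% of all promoters, and among tested genes in 15% of those higher, 11.1% of those lower and 12.2% of those not called. Of 28 ATF4 and amino acid stress genes 2 rose, Psat1, of serine synthesis, by 1.17 ± 0.19 and Nars, and 1 fell (Gdf15), and Atf4 itself was not called (-0.01 ± 0.12, adjusted p = 0.951).

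Of 23 G1 genes 7 rose and 3 fell, and of 18 mitosis genes 0 were called by limma or edgeR and 1 by DESeq2, with 3 at an unadjusted p under 0.05. Ccne1, cyclin E1, had 4.02 to 14.5 normalised counts in air (median 9.0) and 49.6, 44.2, 46.1, 29.7 and 41.1 after ozone, a rise by 2.25 ± 0.31 (adjusted p = 0.000402). Ccnd2, cyclin D2, had 32.3 to 46.0 in air and 20.0, 22.1, 21.0, 15.8 and 16.8, a change of -1.04 ± 0.16. E2f2 rose by 0.78 ± 0.16. Myc fell by 1.77 ± 0.41 (adjusted p = 0.00874), with air values from 37.2 to 229 that overlapped the 23.3 to 49.6 of ozone. Of 22 immediate early genes Klf4 rose by 0.64 ± 0.14, and Myc, Klf6 and Nr4a2 fell, Klf6 by 0.57 ± 0.14. Inhba, the activin A subunit that restrains hepatocyte growth, had 127 to 378 in air (median 249) and 66.8, 49.0, 47.1, 43.6 and 104, a fall by 2.00 ± 0.27 (adjusted p = 0.000307), and Tgfbr2, the TGF-beta receptor, fell by 0.80 ± 0.08.

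The question whether cutting the nerve altered the response to ozone was put as a test of the difference between the ozone changes of vagotomised and sham rats, each against its own air libraries, over 12424 genes. No gene passed in limma (0 called, 0% of those tested, smallest adjusted p = 0.105, 1147 at an unadjusted p under 0.05) or in edgeR (0 called, 1165 at an unadjusted p under 0.05), and DESeq2 called 20 (1237 unadjusted). Of the 121 named genes that were called after vagotomy, 119 had a change of the same sign in sham rats, and E2f2 (-0.19 ± 0.22 in sham) and Pck1 (0.12 ± 0.19 in sham) did not. Got1 was 2.79 ± 0.21 in sham beside 2.63 ± 0.21 after vagotomy, Parp14 was -1.32 ± 0.13 beside -1.29 ± 0.11 and Baat was -1.14 ± 0.12 beside -1.14 ± 0.10. In 18 of the 121 genes the difference between the changes was over 2 SE, but none passed. Most of the 121 were chosen by their changes in vagotomised rats. The counts of same signs and of differences over 2 SE were not made over all genes, so they describe the 121 only. The smallest adjusted p among the 121 was that of E2f2, with a difference of 0.96 ± 0.31 (limma adjusted p = 0.383). Among the 18 were Fam69c (4.57 ± 0.37 in sham), Spsb1 (4.35 ± 0.46 in sham) and Fkbp5 (2.53 ± 0.31 in sham). These had lower estimates after vagotomy, with differences of -1.54 ± 0.52, -1.66 ± 0.65 and -1.17 ± 0.44 (adjusted p = 0.393, 0.45 and 0.429). Not all of the 18 had smaller changes after vagotomy. Abcc2 (-0.15 ± 0.16 in sham), Apoa5 (-0.17 ± 0.16 in sham) and Pola1 (-0.62 ± 0.18 in sham) had larger falls there. Their differences were -0.53 ± 0.22, -0.56 ± 0.22 and -0.58 ± 0.25 (limma adjusted p = 0.493, 0.457 and 0.512). Cish was -2.27 ± 0.84 in sham, a difference of -1.96 ± 1.18 (adjusted p = 0.652). A p that misses the threshold does not show that the responses were alike.

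**Figure D4:**
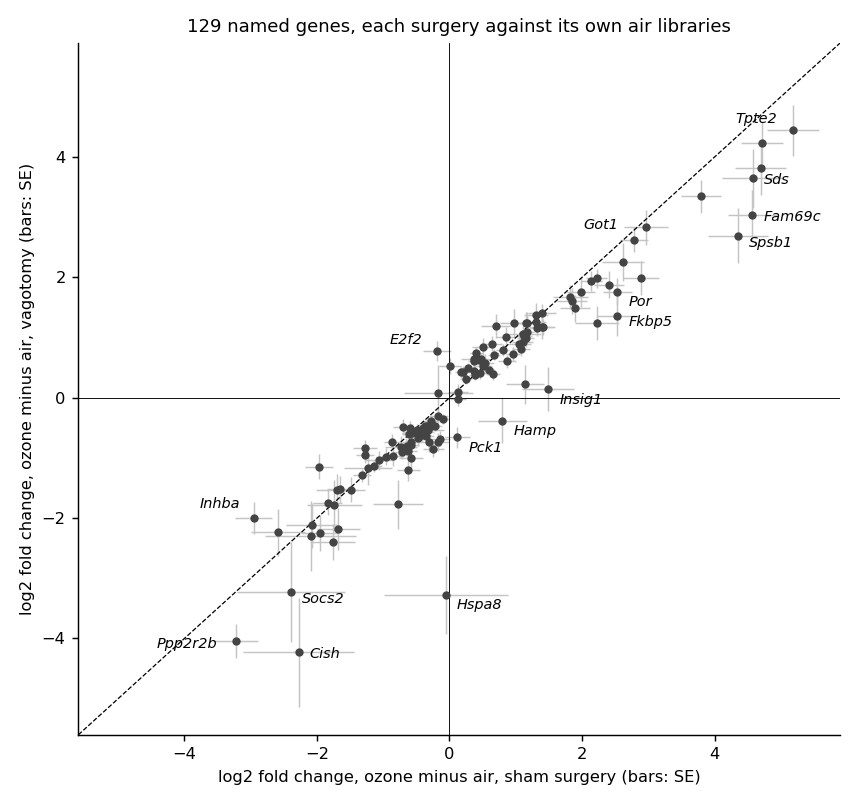
Log2 fold changes, ozone minus air, of the 129 named genes in sham rats (horizontal) and in vagotomised rats (vertical), each with its SE and each against its own air libraries. The dashed line marks equal changes: Got1 lies near it, Fam69c, Spsb1 and Fkbp5 lie below it on the side of rises, and Hspa8 is a row of few counts. Whether reads of Hspa8 are shared with near-identical copies of the gene was not tested.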

How the data were processed

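Liver RNA of 22 rats was made into libraries with the Takara PrepX kit. The table the authors deposited holds 1 signal value for every gene and library, reads divided by a factor specific to the library, called normalised counts here. STAR, rn6, Partek, DESeq and DESeq2 are named, per the submitters' processing notes, with no version or role, and whether counting used strand is not given in the sources used here. Since every value was a whole multiple of its column's smallest step (tolerance 0.001), reads could be recovered in all 22 columns. Genes are listed by symbol without coordinates, 12462 symbols matched RefSeq and 616 more a synonym, and promoters are on GRCr8.

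limma 3.58.1 (R 4.3.3) was fitted to log2(normalised count + 1) of the 11 libraries of vagotomised rats with an intensity trend, and tests were two-sided. The difference from sham rats, and the sham changes, come from a fit to all 22. Fold changes on that scale understate those of low genes. No 2 libraries of a group were copies (25 pairs, chi-square over degrees of freedom at least 11.2, r from 0.963 to 0.984). Nothing in the labels says that replicates had separate litters or surgery days, so p-values measure the spread between these libraries. The fits were tested on simulated data. There limma called 33.3% of 66 genes with a true 1.5-fold change, 70.1% of 67 with 2-fold and 97% of 66 with 4-fold. Of 12236 genes without a change it called 9. A gene that was not called may therefore still have changed, above all by less than 2-fold.

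The comparison, the 50 pathway and 11 marker lists and the tests were chosen with earlier results of these data known. Of 1195 list symbols 72 had no row. The naming rule took the 8 largest rises and 8 largest falls that were called, had a gene name and averaged at least 50, up to 3 members of each list by smallest p, both only if called without each library in turn, 15 set genes, and called genes of the difference from sham, of which there were 0. It gave 129 genes, some of which are not reported here. Other genes in the text, those marked as outside the rule and those named only within a count or as a marker, were chosen after their values were seen, apart from Tat, Igtp and Psmb9, which were set for the promoter letters. Alternatives were pseudocounts of 0.5 and 5, no minimum and a minimum of 50, equal totals, equal upper quartiles, edgeR 4.0.16 and DESeq2 1.42.0 on recovered reads, a replicate block, the S number of the description as covariate, robust empirical Bayes, all 22 libraries in 1 model, leaving out the libraries with 5.8S ribosomal RNA under 200, and leaving out each library.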

Additional observations from a re-analysis of the deposited data

Results flagged for a closer look

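In 260 groups of values, the air and the ozone libraries for 128 genes given with values and for 2 library measures, 15 held a library far from the others of its group, by Dixon's criterion on the gap to its nearest neighbour as a share of the group's range on the log2 scale, which is the ratio given. Chance flags about 1 in 20 groups. Their values are given without explanation.

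Low in air library 1 were Arg1 (8553 normalised counts against 16156 in the next library, ratio 0.654), Irs1 (613 against 721, 0.690) and Tpte2 (0.85 against 6.87, 0.773). In air library 5, Pck1 was high (113561 against 83103, 0.666) and Tor3a was low (60.2 against 149, 0.682). Air library 6 was low for Hsd3b5 (7919 against 9256, 0.744), and air library 2 was high for Nr3c1 (4213 against 2727, 0.733).

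Ozone library 1 had the most such values. It was low for 5.8S ribosomal RNA itself (38.1 against 802, 0.783), for Idh3a (373 against 638, 0.829), Lyve1 (604 against 672, 0.819) and Abhd5 (635 against 749, 0.711). It was high for Sqstm1 (6580 against 5366, 0.756) and Myc (49.6 against 28.3, 0.747). Ozone library 5 was low for Got1 (18086 against 25479, 0.758) and ozone library 4 for Klkb1 (4261 against 4818, 0.823).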

How the results depend on the processing

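The count of genes called after vagotomy was 1543 to 2849 when 1 library was left out, the lowest without ozone library 3 (817 higher and 726 lower, higher counts ranging up to 1553 and lower counts up to 1296), and 2262 to 3302 under the other alternatives, where it stayed within 1.5 times the reported count. Equal upper quartiles changed the share of called genes that were higher from 53.0% to 43.4%. For the difference from sham rats, DESeq2 called 20 genes where limma called 0, and leaving out 1 library gave 0 to 1 called, with 1 without sham air 5, sham ozone 4 or vagotomy air 2. Replicate numbers did not pair rats: deviations of same-numbered libraries correlated at 0.60, 0.24, 0.23, 0.03 and -0.24, and with the replicate block 2687 genes were called. Of 3089 values of the 129 named genes under alternatives, 3066 kept their direction and side of the threshold. Most named genes were taken only if they stayed called without each library in turn. For those genes the fits without 1 library could not lose the call, so this count overstates stability. Lost calls were Klf6 in the 22-library model (adjusted p = 0.0742), Pck1 without ozone 2 or 3 and Nr3c1 without ozone 3, and calls gained included Igf1 with the S number (0.0319) or without the libraries low in 5.8S (0.0495). Reversed values were all of genes that were not called. Cyp7a1 was -0.11 with edgeR, -0.10 with DESeq2, -0.23 with the replicate block, -0.21 without the libraries low in 5.8S, and -0.23 to 0.39 when 1 library was left out. Insig1 was -0.0400 without the libraries low in 5.8S and -0.17 to 0.41 when 1 library was left out, and Atf4 was 0.0112 and -0.0741 to 0.0614. The cause of these changes was not tested. Of 2400 list counts under alternatives 252 moved by over 1.5 times. Besides those given with the lists, DESeq2 called 13 complement and coagulation falls, edgeR 3 fatty acid synthesis falls, a minimum mean of 50 left 4 G1 rises and 3 glycolysis falls, equal upper quartiles left 3 respiratory chain and 2 xenobiotic rises, and insulin signalling falls were 2 instead of 4 without ozone library 3. Small counts also moved when 1 library was left out: receptor rises fell to 1 (without air 4 or ozone 2, 3 or 5), the SREBP2 rise to 0 (without air 1, 2, 4 or 5 or ozone 3, 4 or 5), ATF4 rises to 1 (ozone 3) and xenobiotic falls to 1 (ozone 2 or 5), while ATF4 falls became 2 (air 2, 4 or 6), the NAD synthesis fall 2 (air 5), the urea cycle fall 2 (ozone 1) and the chaperone rise 2 (ozone 4). Counts of 0 became 1 for growth hormone rises (ozone 4), interferon rises (ozone 4 or 5), acute phase rises (air 1 or 6 or ozone 1), fatty acid synthesis rises (air 2), fatty acid oxidation falls (ozone 1) and mitosis rises (ozone 1). The depth of 14098863 to 21141337 reads limits low genes, such as Cish after ozone.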

Other observations

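Several genes outside the lists, chosen here after their values were seen, also separated the groups without overlap. Dhdds, which makes the dolichol precursor for protein glycosylation, had 460 to 571 normalised counts in air (median 497) and 1317, 1529, 1478, 1566 and 1192 after ozone, a rise by 1.49 ± 0.10 (limma adjusted p = 5.68e-06). Faxdc2, a sterol desaturase family member, rose by 2.60 ± 0.17 from a median of 16.1 to 100, 132, 93.2, 128 and 106. Etnppl, which breaks down phosphoethanolamine, had 3045 to 7623 in air (median 6612) and 30764, 34405, 36074, 28214 and 27439, a rise by 2.46 ± 0.22. Rbm3, a cold-inducible RNA-binding protein, had 126 to 220 in air and 558, 1048, 1283, 785 and 988 after ozone, a rise by 2.32 ± 0.21. Slc13a5, the citrate uptake carrier, rose by 2.03 ± 0.21, Atp1b1, the beta subunit of the sodium pump, by 2.01 ± 0.21 and Itpr1, a calcium release channel, by 1.33 ± 0.12. Among mitochondrial proteins Ppif, cyclophilin D, rose by 1.34 ± 0.13, Timm10, of protein import, by 1.24 ± 0.10 and Slc25a33, a pyrimidine nucleotide carrier, by 1.66 ± 0.23.

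Among falls, Hsd3b5, a liver steroid-metabolising enzyme, had 7919 to 9767 in air (median 9346) and 4004, 4045, 3687, 4213 and 3085 after ozone, a fall by 1.28 ± 0.10 (limma adjusted p = 9.12e-06). The glycine conjugating enzymes Glyat and Glyatl1 fell by 1.10 ± 0.10 and 1.31 ± 0.13, and Aox3, an aldehyde oxidase, by 1.93 ± 0.23.

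The 5 ozone libraries differed in how far they lay from air. Among the 2423 called genes, ozone libraries 4 and 5 were the pair nearest to the air mean in 502 (20.7%) and ozone libraries 1 and 4 in 488 (20.1%), whereas each of the 4 pairs with ozone library 3 made up 78 to 120 genes (3.22% to 4.95%). The genes were called with these same libraries, so a library that drives calls lies far from air in them. Shares over all genes tested were not computed. The labels do not say which of these rats had 1 and which had 2 days of exposure.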
